A study of Homo sapiens with 5 samples.

Results

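The MHC class II genes described here comprise 10 of the 57905 genes in a deposited table of transcript levels, taken by gene name: HLA-DRA, HLA-DRB1, HLA-DPA1, HLA-DPB1, HLA-DQA1, HLA-DMA, HLA-DMB, CD74, CIITA and RFX5. Their RNA was measured in 5 human cell lines, with 1 library per line. MKL-1, MKL-2, WaGa and MCC13 are labelled as Merkel cell carcinoma (MCC), a neuroendocrine cancer of the skin, and REH as pre-B-cell acute lymphoblastic leukemia, a cancer of immature B cells. All 5 carry the genotype label WT, were kept in RPMI medium with fetal bovine serum, and have no treatment in their labels. The series concerns PAX5, the transcription factor of B-cell identity, in MCC.

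MHC class II molecules display peptides from endosomes to CD4 T cells and are the hallmark of professional antigen-presenting cells, B cells among them. Each is a pair of an alpha and a beta chain (DR, DP, DQ) that is loaded in endosomes with the help of the invariant chain CD74 and the peptide exchanger DM. Their genes share a promoter bound by the RFX complex, of which RFX5 is a subunit, by NF-Y and by CREB. CIITA, which does not bind DNA itself, docks on that complex and acts as the switch, since most cells express the complex but not CIITA.

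Levels are given in TPM, which scales for transcript length and to the same total in each library, so genes can be compared within a line. The read depth behind TPM is unknown, and an exact 0 is written as listed at 0 because it can be a failed estimate. In RNA from whole cultures, fewer cells of a type and less RNA per cell cannot be told apart. The MCC label was checked against 6 Merkel cell markers. Their summed level was 2978 TPM (MKL-1) to 3475 TPM (WaGa) in 3 of the lines but 1.11 TPM in MCC13, where ATOH1, INSM1, KRT20 and ISL1 were listed at 0. MCC13 instead held 8336 TPM of 5 mesenchymal markers, such as VIM and FN1, against 5.02 to 12.7 TPM in the other 3 MCC lines. The calls on the 10 genes that pool the 4 MCC lines are therefore also given without MCC13. Of the B-cell markers, CD79A stood at 1091 TPM in REH and between 0.632 TPM (MCC13) and 7.67 TPM (MKL-2) in the MCC lines. CD79B had another order, at 666 TPM in REH, 28.0 TPM in MKL-1, 10.5 TPM in WaGa and 0.800 TPM in MKL-2, and was listed at 0 in MCC13. The mature B-cell marker MS4A1 stood at 0.0359 TPM in REH.

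**Figure D1:**
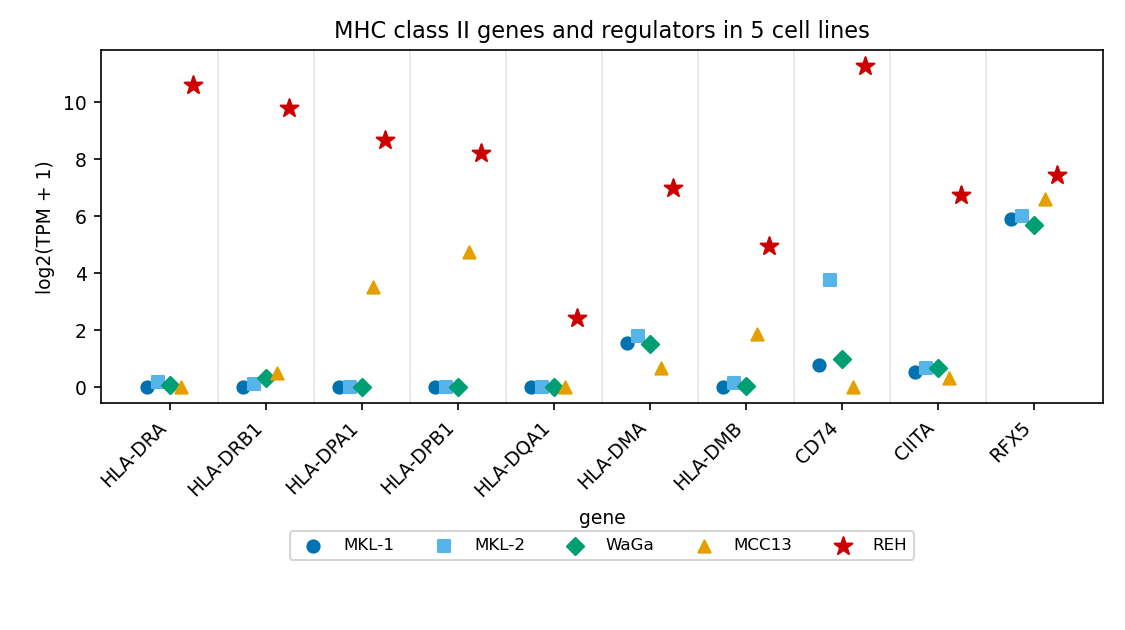
Level of each of the 10 genes, as log2(TPM + 1) on the vertical axis, in the 5 lines, with 1 symbol per line and 1 library behind each symbol. REH is the highest symbol for all 10 genes, and MKL-2 lies apart for CD74. MCC13 lies between REH and the other lines for HLA-DPA1, HLA-DPB1, HLA-DMB and RFX5. It does so narrowly for HLA-DRB1 too, at 0.427 TPM against at most 0.263 TPM in the other MCC lines.

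REH expressed the whole class II set, and the MCC lines expressed only parts of it, at far lower levels apart from RFX5. Besides RFX5, HLA-DPA1, HLA-DPB1 and HLA-DMB reached 1 TPM in MCC13. CD74 did so in MKL-2, and HLA-DMA in MKL-1, MKL-2 and WaGa. All 10 genes reached 1 TPM in REH, against 4 in MCC13, 3 in MKL-2 and 2 each in MKL-1 and WaGa. The 7 HLA genes summed to 3309 TPM in REH, 39.5 TPM in MCC13, 2.78 TPM in MKL-2, 2.16 TPM in WaGa and 1.92 TPM in MKL-1. The 10 genes together made up 0.603% of all TPM for REH, and between 0.00542% (WaGa) and 0.0136% (MCC13) in the MCC lines. In each MCC line the highest of the 10 was RFX5, and in REH it was CD74.

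The DR chains form the most abundant class II molecule of most B cells. HLA-DRA (ENSG00000204287), the nearly invariant DR alpha chain, stood at 1547 TPM in REH, 0.0440 TPM in WaGa and 0.139 TPM in MKL-2, while MKL-1 and MCC13 listed it at 0. REH thus stood far above a group of 4 lines that were all close to 0. The difference of the MCC lines from REH was -10.53 ± 0.51 (SE) on the log2(TPM + 1) scale (limma adjusted p = 0.00572). HLA-DRB1 (ENSG00000196126), the main DR beta chain, stood at 891 TPM in REH, 0.427 TPM in MCC13, 0.263 TPM in WaGa and 0.0716 TPM in MKL-2, and was listed at 0 in MKL-1. Its difference was -9.56 ± 0.55 (limma adjusted p = 0.00572), again with no overlap. The DR beta genes are near-identical and highly polymorphic, so the split of reads between HLA-DRB1, HLA-DRB5 and the pseudogene HLA-DRB6 is uncertain. In REH the ratio of HLA-DRA to HLA-DRB1 was 1.74 in TPM.

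The DP chains, a pair that lies apart from DR in the class II region, gave another order of lines. HLA-DPA1 (ENSG00000231389), the alpha chain, stood at 412 TPM in REH and 10.3 TPM in MCC13, at 0.0118 TPM in MKL-2, while WaGa and MKL-1 listed it at 0. HLA-DPB1 (ENSG00000223865), the beta chain, stood at 298 TPM in REH and 25.5 TPM in MCC13, at 0.00185 TPM in MKL-1, and was listed at 0 in MKL-2 and WaGa. MCC13 thus lay between REH and the other 3 lines for both chains, at a level that was 39.95-fold (HLA-DPA1) and 11.7-fold (HLA-DPB1) below REH. The differences of the 4 MCC lines from REH were -7.81 ± 1.66 (SE, limma adjusted p = 0.084) and -7.04 ± 2.195 (SE, limma adjusted p = 0.19), and neither passed. The alpha chain exceeded the beta chain in REH (ratio 1.38) and was the lower of the pair in MCC13 (ratio 0.405), with 1 library behind each ratio. RefSeq places the DP genes on opposite strands with overlapping spans. The libraries keep the strand, but the sources used here do not say whether the authors' quantification used it.

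HLA-DQA1 (ENSG00000196735), the DQ alpha chain, stood at 4.33 TPM in REH and was listed at 0 in all 4 MCC lines. It was the lowest of the 10 genes in REH, whereas its partner HLA-DQB1 stood there at 109.5 TPM, 25.3-fold higher. HLA-DQA1 is highly polymorphic, and reads of alleles unlike the reference may be lost, which these files cannot show. Its difference from REH was -2.41 ± 0.18 (SE, limma adjusted p = 0.0064).

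HLA-DM does not present peptides but removes the CD74 fragment from the groove of other class II molecules. HLA-DMA (ENSG00000204257), its alpha chain, stood at 126 TPM in REH, 2.44 TPM in MKL-2, 1.92 TPM in MKL-1, 1.83 TPM in WaGa and 0.588 TPM in MCC13. It was thus the 1 HLA gene of the set above 1 TPM in the MCC lines other than MCC13, and the difference of the MCC lines from REH was -5.62 ± 0.68 (SE, limma adjusted p = 0.0222). HLA-DMB (ENSG00000242574), its beta chain, was highest among the MCC lines in MCC13, where HLA-DMA was lowest. It stood at 29.9 TPM in REH, 2.67 TPM in MCC13, 0.0182 TPM in WaGa and 0.113 TPM in MKL-2, and at 0 as listed in MKL-1. Its difference from REH, -4.44 ± 0.90 (SE, limma adjusted p = 0.0761), did not pass. The ratio of HLA-DMA to HLA-DMB was 4.22 in REH and 0.220 in MCC13.

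CD74 (ENSG00000019582), the invariant chain that blocks the groove of new class II molecules and guides them to endosomes, was the most abundant of the set in REH at 2444 TPM. There it ranked 28th among all genes of the line. In the MCC lines it stood at 12.5 TPM in MKL-2, 0.986 TPM in WaGa and 0.726 TPM in MKL-1, and was listed at 0 in MCC13. MKL-2 thus held CD74 RNA with next to no DR, DP or DQ RNA, and MCC13 held DP RNA with none listed for CD74. REH was 195-fold above MKL-2. The difference of the MCC lines from REH was -9.87 ± 1.55 (SE, limma adjusted p = 0.042), but with all lines kept and other settings the adjusted p in limma ran from 0.00468 to 0.121.

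CIITA (ENSG00000179583), the switch of the set, stood at 105 TPM in REH, 0.588 TPM in WaGa, 0.586 TPM in MKL-2, 0.431 TPM in MKL-1 and 0.243 TPM in MCC13. It was under 1 TPM in every MCC line, and lowest in MCC13, the MCC line with the most HLA RNA of the set. Its difference from REH was -6.19 ± 0.48 (SE, limma adjusted p = 0.00727). RFX5 (ENSG00000143390), by contrast, was expressed in all lines, at 174 TPM in REH, 96.3 TPM in MCC13, 62.8 TPM in MKL-2, 58.3 TPM in MKL-1 and 50.5 TPM in WaGa. REH was 1.81-fold above MCC13, its nearest neighbour, and the difference of the MCC lines (66.99 ± 20.2 TPM, SD, n = 4) from REH was -1.41 ± 0.43 (SE, limma adjusted p = 0.18), which did not pass.

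In total 6 of the 10 genes were lower in the MCC lines than in REH and none was higher, with a median difference of -6.62. Of all 22250 genes tested, 5.24% passed, 4.15% lower and 1.09% higher, and the median difference was 0.18. All 10 genes were lower at an unadjusted p under 0.05 in limma. Of the 6 called genes, HLA-DRA, HLA-DRB1, HLA-DQA1 and CIITA reached the 1 TPM needed for testing in REH alone, so they had to be higher there, and their count lends no support of its own. Without MCC13 all 10 genes were lower (limma adjusted p from 0.00885 to 0.0468), among them RFX5 at -1.59 (limma adjusted p = 0.0397), beside 8.42% of the 21247 genes tested in that fit. There 7 of the 10 reached 1 TPM in REH alone, all but HLA-DMA, CD74 and RFX5, and lend no support by their count. Without MKL-1, MKL-2 or WaGa none of the 10 passed (limma adjusted p from 0.0649 to 0.372), although 8 or 9 of them had an unadjusted p under 0.05. Mitochondrially encoded genes took 0.783% of the TPM in REH and 3.52% to 7.84% in the MCC lines, and with the values rescaled without them 6 of the 10 were lower as well. REH is 1 library, so line and tumour type cannot be told apart, and with these 5 lines the smallest p of an exact permutation test is 0.2.

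**Figure D2:**
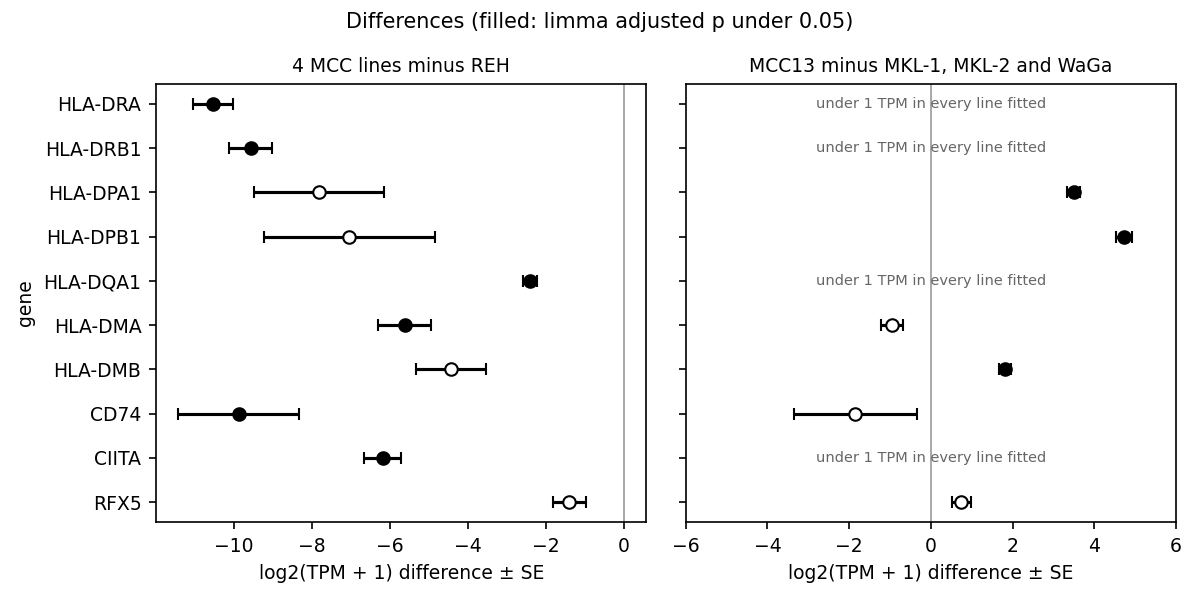
Differences in log2(TPM + 1) with their SE (horizontal axis) for each gene, on the left for the 4 MCC lines minus REH and on the right for MCC13 minus the other 3 MCC lines. Filled symbols passed (limma adjusted p under 0.05), and every difference on the left is negative, while HLA-DPB1, HLA-DPA1 and HLA-DMB are positive and filled on the right.

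MCC13 was then compared with MKL-1, MKL-2 and WaGa. It was singled out because earlier results of these data showed that its class II levels differ from theirs. The calls on class II genes in this comparison therefore lend no support of their own. HLA-DPB1 (difference 4.73 ± 0.20, SE), HLA-DPA1 (3.50 ± 0.16) and HLA-DMB (1.82 ± 0.14) were higher in MCC13 (limma adjusted p = 0.00855, 0.00855 and 0.0139). Without the filter on low values HLA-DMB did not pass (limma adjusted p = 0.0631), which leaves 2. The SEs are small because the other 3 lines were at or close to 0 for these genes, at no more than 0.113 TPM. Against this, HLA-DMA was at 2.06 ± 0.33 TPM (SD, n = 3) in these 3 lines and at 0.588 TPM in MCC13, a difference of -0.94 ± 0.27 (SE, limma adjusted p = 0.153). CD74 differed by -1.85 ± 1.51 (SE, limma adjusted p = 0.499), with MKL-2 far above MKL-1 and WaGa. RFX5 was at 57.2 ± 6.22 TPM (SD, n = 3) against 96.3 TPM, a difference of 0.75 ± 0.23 (SE, limma adjusted p = 0.173). HLA-DRA, HLA-DRB1, HLA-DQA1 and CIITA were under 1 TPM in all 4 lines and were not tested.

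Thus MCC13 was higher for 3 of the 6 tested genes and lower for none (for 1, HLA-DMA, at an unadjusted p under 0.05 in limma). Of all 20698 genes tested, 8.95% passed, 6.47% higher and 2.47% lower in MCC13, with a median difference of -0.30. HLA-DPA1, HLA-DPB1 and HLA-DMB reached 1 TPM in MCC13 alone, so the filter favours their call. Without MKL-1, MKL-2 or WaGa none of the 3 passed (limma adjusted p from 0.0893 to 0.136). With these 4 lines the smallest p of an exact permutation test is 0.25. Markers of other antigen-presenting cells were low in MCC13. Of 8 macrophage and dendritic cell markers none reached 1 TPM there, their sum was 1.055 TPM against 1.31 to 3.73 TPM in the other 3 lines, and LYZ, CD1C and CLEC9A were listed at 0 (CD1C in all 5 lines). ITGAX stood at 0.256 TPM in MCC13, against no more than 0.00135 TPM in any other line. CSF1R stood at 0.134 TPM in MCC13, while MKL-1, MKL-2 and WaGa ranged from 0.0111 to 0.117 TPM. In REH, CSF1R stood at 17.5 TPM and FLT3 at 76.8 TPM, and the remaining markers of this list were under 1 TPM. The part of these genes in the result was not tested. The B-cell markers CD79A, CD22 and PAX5 were under 1 TPM in MCC13, and MS4A1 and CD79B were listed at 0. Of 5 T-cell markers the highest in MCC13 was LAG3 at 0.462 TPM, and CD3D, CD3E and CD2 were listed at 0 in all 5 lines. The mesenchymal markers given above moved with the DP genes in MCC13, and their part in the result was not tested.

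The other class II chains followed REH. Of 6 such genes, all 6 were lower in the MCC lines, but none exceeded 0.704 TPM in any MCC line, so all were tested through REH alone. HLA-DRB5, a DR beta gene of some haplotypes, stood at 197 TPM in REH and 0.704 TPM in MCC13. HLA-DQB1 reached 109.5 TPM in REH and no more than 0.156 TPM in the MCC lines (limma adjusted p = 0.00572). HLA-DOA and HLA-DOB encode DO, which restrains DM in B cells. HLA-DOA stood at 71.6 TPM and HLA-DOB at 3.03 TPM in REH, and they passed with a limma adjusted p of 0.00585 and 0.0458. HLA-DQB2 and HLA-DQA2, a DQ-like pair of restricted expression, stood at 21.7 TPM and 1.03 TPM in REH and were listed at 0 in all MCC lines. Among 5 class II pseudogenes, HLA-DRB6 (18.4 TPM in REH) and HLA-DPB2 (3.43 TPM) were lower in the MCC lines, beside 4.15% of all genes tested. HLA-DPA3 (1.40 TPM in REH) did not pass (limma adjusted p = 0.0557). These 3 stood at no more than 0.250 TPM in any MCC line. They too were tested through REH alone and could only be lower in the MCC lines. HLA-DPA2 and HLA-DRB9 were under 1 TPM in all 5 lines.

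**Figure D3:**
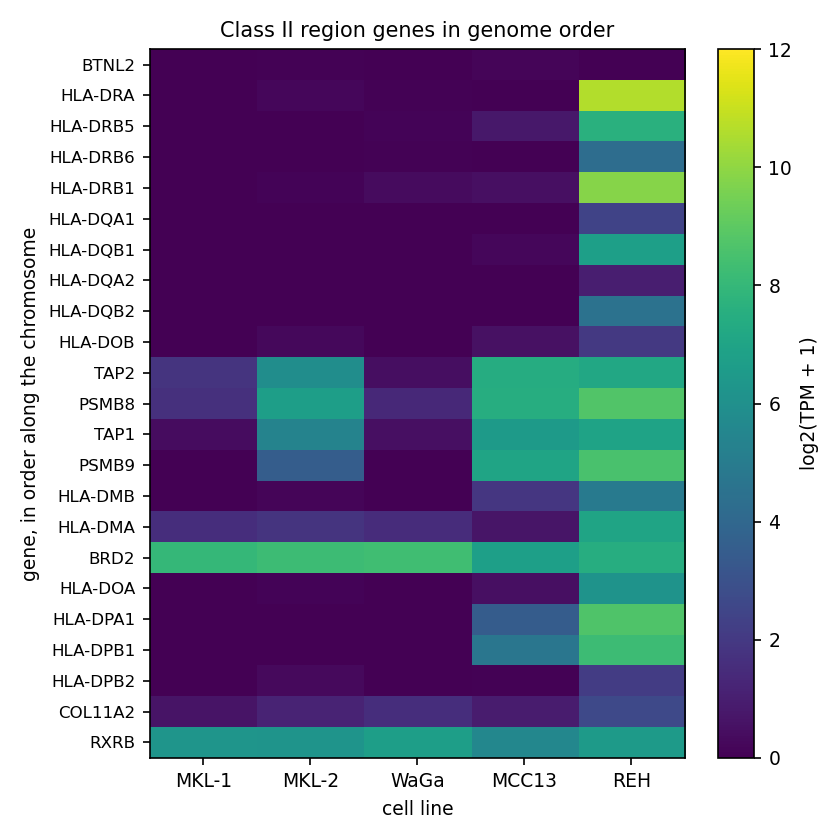
Level of 23 genes of the class II region as log2(TPM + 1) (colour), with the genes in chromosomal order from top to bottom and the 5 lines from left to right. Most HLA genes show in REH alone, HLA-DPA1, HLA-DPB1 and HLA-DMB also show in MCC13 and HLA-DMA faintly in the other 3 MCC lines, and the TAP and PSMB genes between them show in MKL-2, MCC13 and REH.

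Genes that lie among the class II genes had another order of lines. Between HLA-DOB and HLA-DMB lie TAP2, PSMB8, TAP1 and PSMB9, which serve MHC class I with peptide transport and immunoproteasome subunits. PSMB8 stood at 432 TPM in REH, 177 TPM in MCC13, 104 TPM in MKL-2, 2.17 TPM in MKL-1 and 1.64 TPM in WaGa. TAP2 (ENSG00000204267) was at 144 TPM in REH, 170 TPM in MCC13, 58.6 TPM in MKL-2, 2.52 TPM in MKL-1 and 0.368 TPM in WaGa. TAP1 was at 123 TPM in REH, 91.5 TPM in MCC13, 40.2 TPM in MKL-2 and under 1 TPM in MKL-1 and WaGa. PSMB9 was at 378 TPM in REH, 126 TPM in MCC13 and 10.6 TPM in MKL-2, and was listed at 0 in the remaining lines. MKL-2 and MCC13 thus stood above MKL-1 and WaGa for all 4 genes, with HLA-DMB beside them at 0.113 TPM in MKL-2. BRD2, a chromatin reader gene on the other side of HLA-DMA, was at 107 to 322 TPM in all 5 lines. Of 7 tested neighbours none passed against REH (limma adjusted p from 0.21) or in MCC13 (limma adjusted p from 0.0582). The neighbours of CIITA (DEXI and CLEC16A) and of CD74 (RPS14 and TCOF1) reached 7.81 TPM or more in all 5 lines, and none passed in either comparison.

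The partners of RFX5 at the class II promoter were present in every line. RFXANK, an RFX subunit, stood at 133 TPM in REH and 48.1 to 82.7 TPM in the MCC lines. RFXAP, the remaining RFX subunit, stood at 17.6 TPM in REH, 20.8 TPM in MKL-1, 13.2 TPM in WaGa, 12.1 TPM in MKL-2 and 3.97 TPM in MCC13, the lowest value. The NF-Y subunit genes NFYA, NFYB and NFYC stood between 22.1 and 106 TPM across all lines, and CREB1 between 12.4 and 24.4 TPM. None of these 6 genes passed against REH (limma adjusted p from 0.14, median difference 0.21) or in MCC13 (limma adjusted p from 0.153), which does not show that their levels were equal. For NFYC the difference from REH was 1.41 ± 0.38 (SE, limma adjusted p = 0.14).

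The letters that this complex reads can be seen in the reference promoters of the genes above. RefSeq windows (GRCh38.p14, 250 bases before to 50 after each start) were at hand for 8 of the 10 genes, not for HLA-DRA and CIITA. They were searched on both strands for ATTGG, the core of the Y box read by NF-Y, and for AGNNAC followed directly by NGATG, a form of the X box read by RFX that was chosen after reading these windows. The following stretches, from 125 to 16 bases before the start and 5′ to 3′ along the gene, carry every match within them in capitals (CCAAT is ATTGG on the opposite strand). They show genes with an X and a Y match (HLA-DRB1, HLA-DMA, HLA-DMB) beside HLA-DPB1, a DP gene of MCC13, and the CD74 of MKL-2. In HLA-DMB the Y match is on the opposite strand. Only this form of the X box was searched, so a stretch without an X match may still hold an X box.
HLA-DRB1 (chr6:32589864-32589973, minus strand): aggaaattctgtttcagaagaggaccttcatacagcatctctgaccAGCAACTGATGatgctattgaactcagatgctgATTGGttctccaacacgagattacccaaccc
HLA-DMA (chr6:32953113-32953222, minus strand): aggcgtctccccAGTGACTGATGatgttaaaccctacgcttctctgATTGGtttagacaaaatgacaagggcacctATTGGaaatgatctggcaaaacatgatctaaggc
HLA-DMB (chr6:32941044-32941153, minus strand): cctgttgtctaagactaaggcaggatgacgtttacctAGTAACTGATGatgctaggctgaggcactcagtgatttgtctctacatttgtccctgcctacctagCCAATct
HLA-DPB1 (chr6:33075865-33075974, plus strand): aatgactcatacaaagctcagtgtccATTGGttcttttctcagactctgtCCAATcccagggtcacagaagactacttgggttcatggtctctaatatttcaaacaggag
CD74 (chr5:150412926-150413035, minus strand): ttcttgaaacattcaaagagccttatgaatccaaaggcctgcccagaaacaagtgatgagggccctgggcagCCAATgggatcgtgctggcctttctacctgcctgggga

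In the full windows, 7 of the 8 genes held a Y match and 3 an X match. A gene counted if any of its windows held a match, and the 8 genes had 11 windows. Of all 35116 promoter windows, 34.6% held a Y match, 0.817% an X match and 0.288% held both. The X letters were chosen after reading these windows, so the X matches lend no support of their own. No X match overlapped a Y match. Among the 6 other class II chains, 6 held a Y match and 2 an X match. The X match began 33 bases before the next Y match in HLA-DRB1, HLA-DRB5 and HLA-DQB1, 34 bases before it in HLA-DMA and 66 bases before it in HLA-DMB. The windows of HLA-DPA1 held neither string of letters. These matches describe the reference sequence and not the alleles of the 5 lines.

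**Figure D4:**
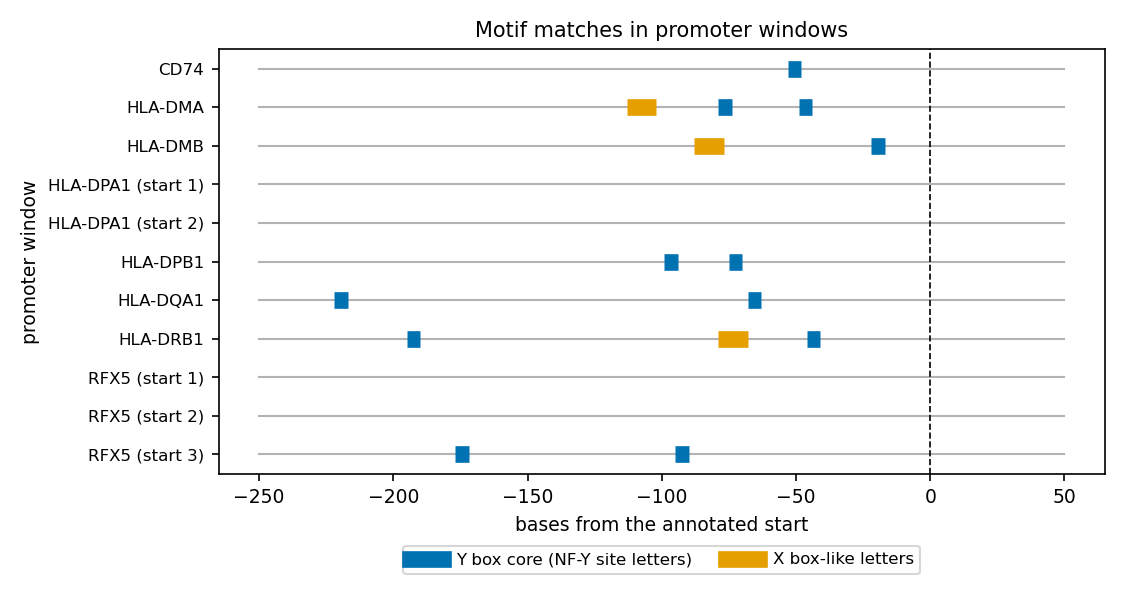
Matches to the Y box core and to the X box-like letters in 11 promoter windows of 8 genes, by distance in bases from the annotated start (dashed line), with a grey line for each window. X matches lie upstream of a Y match in HLA-DRB1, HLA-DMA and HLA-DMB.

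CIITA itself is switched on by interferon gamma in most cells and by lymphoid or myeloid factors in antigen-presenting cells. On the interferon gamma route, 9 genes were tested and none passed in either comparison (limma adjusted p from 0.0985 against REH and from 0.287 in MCC13). JAK1, the receptor-bound kinase, stood at 30.6 to 90.7 TPM in all lines. IRF1, which acts on a CIITA promoter, stood at 141 TPM in REH, 29.1 TPM in MKL-2, 22.3 TPM in MKL-1, 18.5 TPM in MCC13 and 2.03 TPM in WaGa. USF1, a partner at the same promoter, stood at 147 TPM in REH and 61.2 to 74.1 TPM in the MCC lines (limma adjusted p = 0.105). JAK1, IRF1 and USF1 were thus transcribed in lines with under 1 TPM of CIITA.

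Of 5 lymphoid and myeloid factors, SPI1 was lower in the MCC lines. SPI1 encodes PU.1, a factor of myeloid and B cells, with 180 TPM in REH and no more than 0.0986 TPM in any other line (difference -7.46 ± 0.41, SE, limma adjusted p = 0.00572), so it was tested through REH alone and could only be lower in the MCC lines. TCF3, which encodes the E2A proteins of early B cells, stood at 586 TPM in REH and 163 to 227 TPM in the MCC lines, and did not pass (limma adjusted p = 0.0669). IRF8 stood at 10.5 TPM in REH, 12.6 TPM in MKL-2, 6.76 TPM in MKL-1, 1.53 TPM in WaGa and 0.0631 TPM in MCC13. In MCC13, RUNX3 (62.7 TPM against at most 1.17 TPM in the other 3) and IRF4 (3.49 TPM against at most 0.210 TPM) were higher (limma adjusted p = 0.0256 and 0.0164), IRF4 having been tested through MCC13 alone. PAX5 stood at 186 TPM in REH and 0.0228 TPM in MCC13. It stood at 38.4 TPM in WaGa, 75.03 TPM in MKL-2 and 91.9 TPM in MKL-1, lines whose DR, DP and DQ chains were all under 1 TPM.

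Genes encoding repressors and coactivators of CIITA were expressed in all 5 lines, with 1 exception, PRDM1. HDAC1 and DNMT1 stood at 203 TPM or more in every line, and EZH2, the methyltransferase of Polycomb, at 196 TPM in REH and 62.7 to 102 TPM in the MCC lines. None of 4 tested repressors and none of 5 coactivators passed in either comparison (limma adjusted p from 0.155). PRDM1, the repressor of CIITA in plasma cells, was under 1 TPM in all 5 lines and was not tested.

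**Figure D5:**
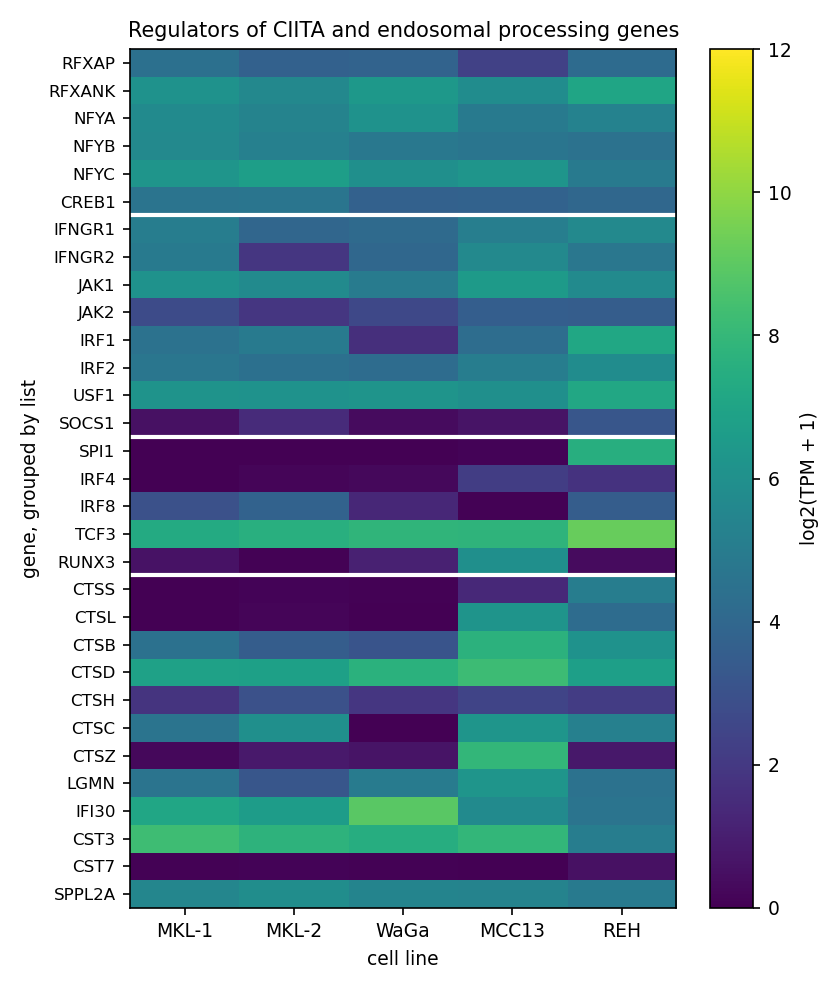
Level of regulator and endosomal genes, 1 per row, as log2(TPM + 1) (colour) in the 5 lines. White lines divide, from top to bottom, promoter complex partners, the interferon gamma route, lymphoid and myeloid factors of CIITA, and endosomal processing genes, and SPI1 is bright in REH alone while CTSL and CTSZ are bright in MCC13.

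Endosomal processing genes, which cut CD74 and antigens, did not follow CIITA as a group. Of 11 tested genes, 1 was lower and 1 higher in the MCC lines than in REH (median difference 0.24). The lower gene was CTSS, the protease that trims CD74 in B cells, at 33.4 TPM in REH, 1.605 TPM in MCC13 and 0.0869 TPM or less in the remaining lines (difference -4.71 ± 0.70, SE, limma adjusted p = 0.0362). The higher gene was CST3, which encodes the protease inhibitor cystatin C, at 32.8 TPM in REH and 175 to 309.9 TPM in the MCC lines (difference 2.79 ± 0.38, SE, limma adjusted p = 0.0278). IFI30, the lysosomal thiol reductase, stood at 23.7 TPM in REH and 52.5 to 487.5 TPM in the MCC lines and did not pass (limma adjusted p = 0.401). In MCC13, 3 of 11 were higher than in the other MCC lines and none was lower, beside 6.47% of all genes higher, and all 3 reached 1 TPM in MCC13 alone, so the filter favours their call. They were CTSL (72.2 TPM against at most 0.116 TPM, limma adjusted p = 0.00855), CTSZ (245 TPM against at most 0.743 TPM, limma adjusted p = 0.00963) and CTSS (limma adjusted p = 0.0176). CTSD stood at 107 TPM in REH and 113 to 303 TPM in the MCC lines.

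At the cell surface, MARCH1 and MARCH8, ligases that remove class II molecules, and CD83, which opposes MARCH1, did not pass in either comparison. CD83 stood at 32.4 TPM in REH and 15.5 to 32.8 TPM in the MCC lines. CD74 also serves as a receptor of the cytokine MIF, with CD44 and CXCR4 as partners. MIF stood at 394 TPM in REH and 603 to 872 TPM in the MCC lines, so the ligand was abundant in lines with little CD74. CD44 stood at 1289 TPM in WaGa, 423 TPM in MCC13, 10.2 TPM in MKL-2 and 107 TPM in MKL-1, against 0.0414 TPM in REH. None of 5 tested ligands and partners passed in either comparison (limma adjusted p from 0.206 and from 0.113). Of 4 costimulatory genes tested against REH, 1 was lower: CD40, a receptor for T-cell help, with 15.02 TPM in REH and no more than 0.147 TPM in the MCC lines (limma adjusted p = 0.00581), so that it was tested through REH alone. ICOSLG, at 37.7 TPM in REH and 2.65 to 4.03 TPM elsewhere, did not pass (limma adjusted p = 0.0504). Of 3 tested in MCC13, 1 was higher: ICAM1, an adhesion ligand of T cells, at 44.8 TPM, against at most 0.124 TPM in the other 3 MCC lines (limma adjusted p = 0.00855). ICAM1 likewise reached 1 TPM in MCC13 alone among the MCC lines, and CD80 and CD86 were under 1 TPM in all lines.

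The genes closest in pattern were sought by the root-mean-square difference of log2(TPM + 1) over the 5 lines, as a description without a test. Closest to HLA-DRA was IGLL1, a surrogate light chain gene of pre-B cells (0.21 log2 units, with 1147 TPM in REH and 0.0601 TPM or less in the MCC lines). It was followed by AIF1, APBB1IP, S1PR4 and RAG1 (0.70 to 0.88). Closest to HLA-DPA1 was IL7R, the interleukin-7 receptor (0.24), with 385 TPM in REH, 15.4 TPM in MCC13 and 0.0121 TPM or less in the remaining lines. RASGRP2, MDFI, MME and LYL1 followed (0.48 to 0.63). Closest to CD74 was CD79A, which signals for the B-cell receptor (0.73), with 1091 TPM for REH, 7.67 TPM in MKL-2 and 0.632 to 2.02 TPM elsewhere. LAPTM5 (0.80), GNA15, LTB and SASH3 (up to 1.49) came next, and each of these 4 was also highest in MKL-2 among the MCC lines. CD74 was itself highest there, so the choice by nearness favours this. Each of the 15 genes was highest in REH, which with 5 points and 1 line far above the rest makes likeness common.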

How the data were processed

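Per the submitters' processing notes, STAR 2.4.5b, SAMtools 0.1.19, StringTie 1.3.5 and bcl2fastq 2.20 were used with the builds hg19 and GRCh37, with roles, order and annotation not given in the sources used here. The authors deposited TPM values for 57905 genes, from 1 directional, oligo-dT enriched library per line per the labels. TPM keeps no depth. The 1 column of values that matched no sample was not used, nor was the PAX5 exon table. Values of 2 listed genes are not reported here. Symbols that had become dates were restored from gene identifiers (28 of 29).

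The 4 MCC lines were compared with REH, and MCC13 with the other 3, by limma 3.58.1 (R 4.3.3) on log2(TPM + 1) (variance trend, 2-sided, Benjamini-Hochberg over all genes, threshold 0.05), for genes that reached 1 TPM in any line fitted. This scale understates changes of low genes. The single line on 1 side was taken to vary like the others, with 3 and 2 residual degrees of freedom. The limma p sets the difference against the spread among the lines on the other side, adjusted with the use of all genes. The single line adds nothing to that spread. The fit was tested on simulated data whose values were kept away from 0. That test does not cover genes at or near 0, as many of the set were in the MCC lines. Members, the 19 gene lists and tests were chosen with earlier results of these data known. The text names all members and the 5 genes nearest in pattern to 3 members. From the lists, genes that passed and the 4 highest of each were to be named, which was not done throughout. No coactivator is named, and some marker, repressor, CD74 ligand and costimulatory genes that met this rule are left out. RFXAP, CREB1, TAP1, PRDM1, HLA-DPA2, HLA-DRB9, CD80, CD86, ITGAX, CSF1R, FLT3 and LAG3 were added after their values were seen. Gene order is that of RefSeq (GRCh38.p14). Alternatives covered pseudocount, filter, scaling, variance trend, shared symbols and left-out lines.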

Additional observations from a re-analysis of the deposited data

Results flagged for a closer look

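The gap of an MCC line to the nearest other was divided by the range of the MCC lines, on the log2(TPM + 1) scale. The line was flagged where this ratio was above Dixon's 95% critical value. Chance gives this for about 1 in 20 genes not chosen by level. Among 67 class II, pathway and chromosomal neighbour genes at 1 TPM or more in an MCC line, 9 had a line flagged as far from the other 3. In 8 of them MCC13 was the high line, and all 8 reached 1 TPM in MCC13 alone, so the choice of genes favours this outcome and the chance rate does not apply to them. HLA-DPA1 stood there at 10.3 TPM, HLA-DPB1 at 25.5 TPM and HLA-DMB at 2.67 TPM, against at most 0.0118, 0.00185 and 0.113 TPM in the others. CTSL stood at 72.2 TPM, CTSZ at 245 TPM and CTSS at 1.605 TPM, against at most 0.116, 0.743 and 0.0869 TPM. IRF4 stood at 3.49 TPM and ICAM1 at 44.8 TPM, against at most 0.210 and 0.124 TPM. MIF was the exception, low in MKL-1 at 603 TPM against 825 to 872 TPM in the others.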

How the results depend on the processing

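No class II gene changed direction under any alternative: against REH 91 of 119 values kept their side of the threshold, 22 lost it and 6 gained it, and for MCC13 51 of 61 kept it and 10 lost it. Leaving out an MCC line moved the lower genes of the set from 6 to between 0 and 10, all genes lower than REH from 923 to between 0 and 1790, and those higher from 243 to between 0 and 1038. The upper values are those without MCC13, and the 0 values those without MKL-1, MKL-2 or WaGa (3194, 3432 and 3288 genes at unadjusted p under 0.05 in limma). In MCC13 the 3 class II genes, 1340 higher and 512 lower genes all became 0 on leaving out MKL-1, MKL-2 or WaGa (4414, 4978 and 4579 genes at unadjusted p under 0.05 in limma). These fits have fewer residual degrees of freedom. Against REH, a mean of 5 TPM left 128 genes lower and 160 higher, no filter gave 3496 lower, no variance trend 614 lower, a pseudocount of 0.1 gave 482 lower and 403 higher, and a pseudocount of 10 gave 1479 lower and 118 higher. In MCC13, a mean of 5 TPM left 543 genes higher and 1 class II gene (HLA-DPB1, since HLA-DPA1 and HLA-DMB were not tested), no filter gave 3111 higher, and a pseudocount of 10 gave 283 lower. The cause of these shifts was not tested. Quantile normalization moved the median difference of all genes from 0.18 to 0.03 against REH and from -0.30 to -0.13 in MCC13, and left 6 and 3 class II genes called. No paired analysis was possible because each line was a single library and no replicate numbers link the lines. The unknown read depth limits all values below 1 TPM.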
